A study of Rattus norvegicus with 18 samples.

Results

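Goblet cells of the colon make the mucus gel and the peptides packed with it, and 10 genes of that program were followed in the colon of rats with chemically induced colitis. They are the mucins Muc2, Muc1 and Muc4, the trefoil peptides Tff1, Tff2 and Tff3, the mucus proteins Fcgbp and Zg16, the folding enzyme Agr2 and the transcription factor Spdef. A gene was included through the probe sets that the platform annotation assigns to its symbol alone, and each of the 10 genes had 1 such probe set, among 14217 genes and 20826 probe sets annotated with a single symbol. The study used full-thickness colon on an Affymetrix whole-genome rat array, with 18 arrays in all, 1 rat each. There were 6 healthy controls given saline by enema, with no sampling day in their labels, and 3 rats at each of days 2, 5, 7 and 14 after 1 enema of 10 mg TNBS (a hapten that provokes colitis) dissolved in 50% ethanol. The sources used here do not name strain, sex or age. The TNBS rats were picked for the arrays by inflammatory markers (myeloperoxidase activity, loss of body weight, and colon weight over length), and no group received ethanol alone, so TNBS and its ethanol vehicle cannot be told apart. The labels call the arrays of a group replicates without naming the rats, and p-values measure the spread between these arrays.

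In the healthy colon, goblet cells secrete the gel-forming mucin Muc2, which polymerizes into the mucus layer that keeps bacteria off the epithelium. Fcgbp and Zg16 are secreted with it, Agr2 is a protein disulfide isomerase of the endoplasmic reticulum needed for Muc2 production, and Spdef drives the maturation of secretory cells. Muc1 and Muc4 are membrane-bound mucins of the epithelial surface and are not limited to goblet cells. Trefoil peptides are small secreted proteins that help epithelium migrate over wounds. Tff3 is the trefoil peptide of intestinal goblet cells, whereas Tff1 and Tff2 are known chiefly from the stomach and appear in ulcerated gut.

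The promoters shown here belong to a pair of genes whose signal varied together across the TNBS rats, Muc2 and Agr2, and to a second pair that varied together apart from the first, Tff3 and Muc4. Each is the 250 bases before the annotated start in RefSeq's GRCr8 assembly, written 5′ to 3′ on the gene's strand, at chr1:206228785-206229034 (plus strand) for Muc2, chr6:58435658-58435907 (plus strand) for Agr2, chr20:9199334-9199583 (minus strand) for Tff3 and chr11:81558315-81558564 (minus strand) for Muc4. Capitals mark matches to TATAAA, the core of the promoter element that positions the start, or to AGATAA, which zinc finger factors of the gut bind.
Muc2: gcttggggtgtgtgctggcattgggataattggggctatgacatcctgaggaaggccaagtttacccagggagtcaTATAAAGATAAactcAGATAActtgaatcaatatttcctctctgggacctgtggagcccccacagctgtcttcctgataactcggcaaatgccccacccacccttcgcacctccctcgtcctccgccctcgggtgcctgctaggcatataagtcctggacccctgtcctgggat
Agr2: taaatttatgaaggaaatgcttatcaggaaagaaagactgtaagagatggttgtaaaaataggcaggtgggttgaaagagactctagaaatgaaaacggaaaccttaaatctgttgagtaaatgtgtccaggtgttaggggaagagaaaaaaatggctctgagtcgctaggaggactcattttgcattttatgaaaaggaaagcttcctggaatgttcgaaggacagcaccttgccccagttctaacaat
Tff3: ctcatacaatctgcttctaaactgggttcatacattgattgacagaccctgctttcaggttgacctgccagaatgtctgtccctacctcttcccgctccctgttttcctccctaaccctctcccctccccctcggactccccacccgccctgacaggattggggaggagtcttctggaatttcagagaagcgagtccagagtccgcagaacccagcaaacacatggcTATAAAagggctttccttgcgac
Muc4: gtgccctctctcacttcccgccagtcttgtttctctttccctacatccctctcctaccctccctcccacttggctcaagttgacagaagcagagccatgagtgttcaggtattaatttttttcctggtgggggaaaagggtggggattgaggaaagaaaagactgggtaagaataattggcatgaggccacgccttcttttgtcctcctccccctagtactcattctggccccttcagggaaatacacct
Windows were found for 7 of the 10 genes and were searched on both strands. TATAAA was present in Tff3 from 23 to 18 bases before the start, in Muc2 from 174 to 169 and in Muc1 from 33 to 28, that is in 3 of 7 genes against 12.9% of 33469 promoters. These counts take a match anywhere in the window. The Muc2 match lay much farther from the start than those of Tff3 and Muc1, and whether any match positions a start was not tested. AGATAA was found in Muc2 alone, at 169 to 164 and at 159 to 154 bases before the start, the first sharing a base with TATAAA, against 10.3% of all promoters. The forkhead motif TGTTTAC (3.2% of promoters), the caudal motif TTTATGG (2.7%) and the ETS motif CCGGAT (5.5%) matched none of the 7 windows. In the gene order of the same annotation, Tff3, Tff2 and Tff1 were consecutive coding genes on chromosome 20, and Muc2 lay between Muc6 and Muc5ac on chromosome 1.

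The control and TNBS arrays had unlike value distributions as deposited. The array medians were 4.27 to 4.30 in controls and 5.03 to 5.07 after TNBS, a mean difference of 0.76 at the median but 0.29 at the 99th percentile. The 3′ minus 5′ probe signal also separated them, at -0.19 to 0.19 in controls and 0.27 to 0.76 after TNBS for GAPDH, and at 1.82 to 2.22 and 0.88 to 1.47 for beta-actin. Extraction entries differ as well (Trizol for TNBS samples, a technical manual for controls), although the design text describes one method for the series. An array batch and the treatment therefore cannot be told apart. All values below are log2 signal after quantile normalization, which gives every array the same distribution, unless the deposited scale is named. The words rose and fell, for TNBS days against control, are kept for genes that limma called in the same direction on both scales. A call is an adjusted p under 0.05 (Benjamini-Hochberg, over 31042 probe sets). This condition bears mainly on decreases, since most probe sets were called higher than control as deposited.

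By that rule, Zg16 fell and Tff1 rose on day 5, and Fcgbp fell on day 7, while none of the 10 genes passed on days 2 and 14. With the replicate number as a block in the fit, the calls of Zg16 and Fcgbp ended and that of Tff1 held. That fit in effect uses fewer controls, since some control numbers occur in no TNBS group. After quantile normalization alone, limma called 0 of 10 genes higher and 1 lower on day 2, where 9.13% of all probe sets were called higher and 9.87% lower (19% in all). On day 5 it called 1 higher and 2 lower, against 12.1% and 14.5% of probe sets (26.6% in all). For day 7 the counts were 0 higher and 3 lower, against 12.4% and 15.9% (28.3% in all). For day 14 limma called none, against 5.61% and 6.09% (11.7% in all), and 0 of the 10 genes had an unadjusted p under 0.05. On both scales together 0, 1, 1 and 0 of the genes fell on days 2, 5, 7 and 14, against 0.522%, 1.09%, 1.07% and 0.135% of probe sets, and the shares of probe sets that rose are those called higher. The median log2 difference of the 10 genes from control was -0.07, -0.23, -0.51 and 0.11 over the 4 times, beside -0.01, -0.02, -0.04 and -0.02 over all probe sets. On day 7 it was -0.49 for 16 epithelial markers, -0.94 for 11 enterocyte markers, -0.25 for 4 other mucins and -0.29 for 8 other goblet cell products.

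On the deposited scale, where the median of all probe sets lay 0.54 to 0.59 above control, the calls were mostly higher. There were 4 genes called higher and 0 lower on day 2, against 82.8% and 0.525% of probe sets. The counts were 4 and 1 on day 5 (80.9% and 1.1%), 2 and 1 on day 7 (80.1% and 1.07%), and 4 and 0 on day 14 (86.7% and 0.135%). The genes called higher as deposited were Muc1, Muc4, Tff1 and Tff3 on day 2, Muc1, Muc4, Tff1 and Tff2 on days 5 and 14, and Tff1 and Tff2 on day 7.

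**Figure D1:**
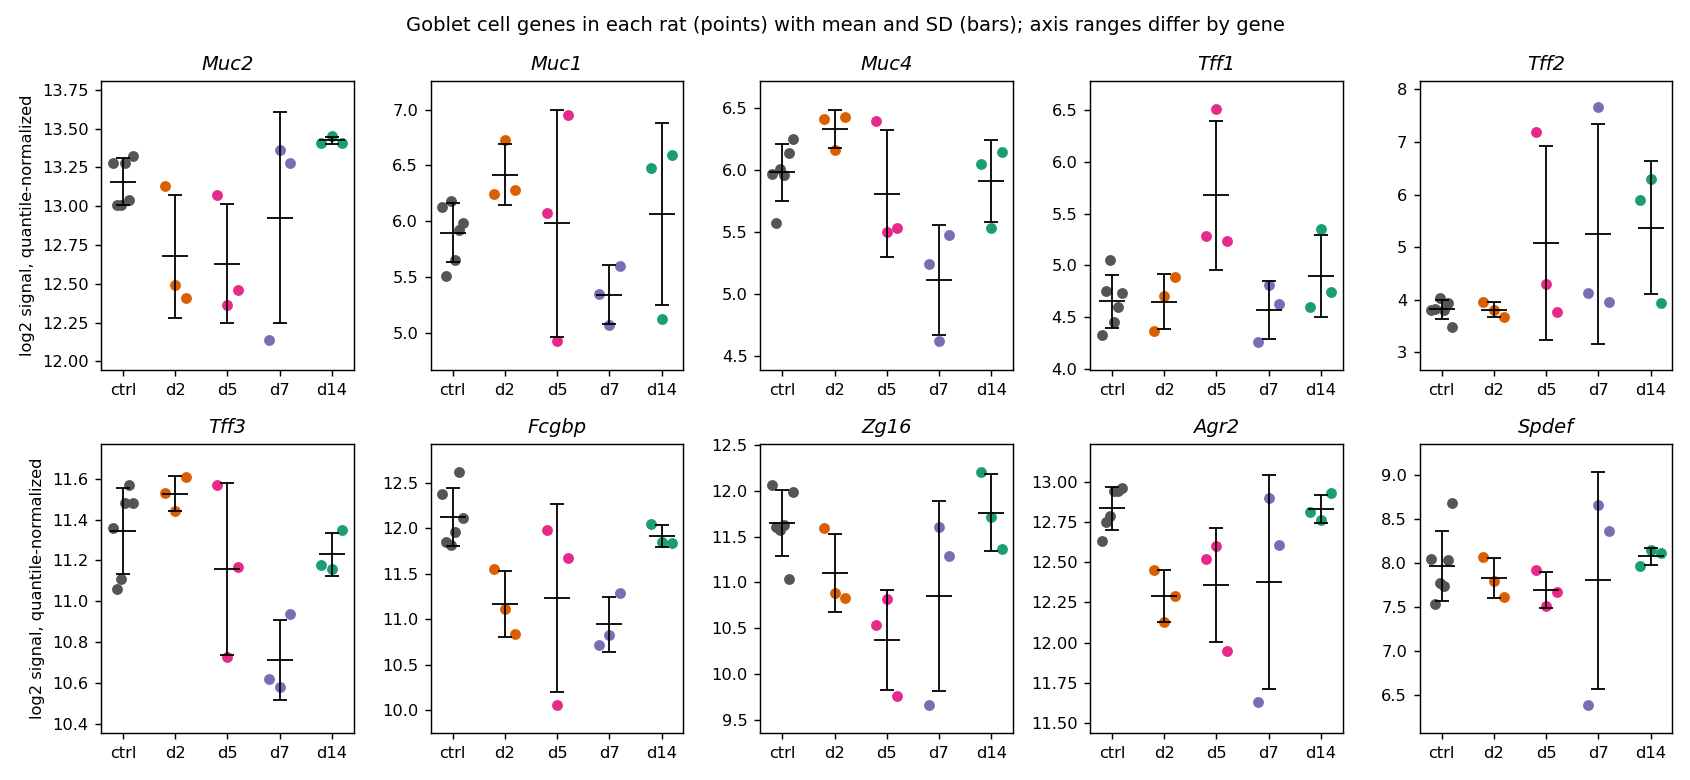
Quantile-normalized log2 signal of the 10 genes in each rat (points) by group, with mean and SD (bars); the vertical range differs by gene. All 3 day 7 points lie below all controls for Muc4, Tff3 and Fcgbp, and Tff2 was high in 1 rat of day 5, 1 of day 7 and 2 of day 14.

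Muc2 (probe set 1383970_at), the structural protein of colonic mucus, kept a high signal at every time. The controls read 13.28, 13.01, 13.01, 13.28, 13.04 and 13.32 (mean 13.16 ± 0.15 SD, n = 6). Day 2 gave 13.13, 12.49 and 12.41, day 5 gave 13.07, 12.36 and 12.46, day 7 gave 12.14, 13.36 and 13.28, and day 14 gave 13.41, 13.45 and 13.41. The low values were thus shared by 2 of 3 rats on days 2 and 5 and by a single rat on day 7, and the other rats of those days lay within or just above the control range. The differences from control were -0.48 ± 0.23 (SE, adjusted p = 0.168) on day 2, -0.53 ± 0.23 (0.107) on day 5 and -0.23 ± 0.23 (0.509) on day 7. On day 14 all 3 rats exceeded all 6 controls, as 8.49% of probe sets did in that comparison, but the difference of 0.27 ± 0.23 did not pass (adjusted p = 0.512).

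Fcgbp (1389762_at) encodes the IgG Fc-binding protein, a mucus component with many von Willebrand domains. The control values were 12.37, 11.85, 11.82, 11.96, 12.62 and 12.11 (mean 12.12 ± 0.32). Day 2 gave 11.55, 11.11 and 10.84, day 5 gave 11.98, 10.06 and 11.67, day 7 gave 10.72, 10.83 and 11.29, and day 14 gave 12.05, 11.85 and 11.84. All rats of days 2 and 7 were below all controls, as for 9.61% and 15.7% of probe sets, and those of day 14 were within the control range. Fcgbp fell on day 7, by 1.17 ± 0.32 on the log2 scale, or 2.26-fold (adjusted p = 0.0112, and -0.83 with 0.0312 as deposited). The call ended without day 7 replicate 1 (-1.07, adjusted p = 0.0571), and also with the replicate number as a block. On day 2 the difference was -0.96 ± 0.32 (adjusted p = 0.0447, but 0.0873 as deposited), and on day 5 it was -0.89 ± 0.32 (0.0478, but 0.129 as deposited). The day 5 value came to -0.30 (adjusted p = 0.395) without replicate 2, and over the 18 fits that each left out 1 array the calls held in 8 for day 2 and in 5 for day 5. In this whole tissue, fewer goblet cells and less RNA per cell cannot be told apart.

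A second probe set, annotated to both Fcgbp and its neighbour Fcgbpl1, gave another picture of the same gene. Its group means were 11.55 in controls and 11.23, 11.36, 11.07 and 11.87 on days 2, 5, 7 and 14, and its day 7 difference of -0.48 ± 0.32 was not called (adjusted p = 0.288), nor was any other day. Both probe sets tracked each other closely from rat to rat, with r = 0.90 over 6 controls and 0.99 over 12 TNBS rats. Their gap within an array differed between the sets of arrays: the Fcgbp probe set read 0.37 to 0.70 above the shared one in the 6 controls, and from 0.24 below to 0.11 above it in the 12 TNBS arrays, day 14 included (0.38 to 0.75 and -0.22 to 0.11 as deposited). The fall of Fcgbp on day 7 therefore rests on 1 of its 2 probe sets, and the part in that gap of the 3′ minus 5′ signal, which also separates these arrays, was not tested.

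**Figure D2:**
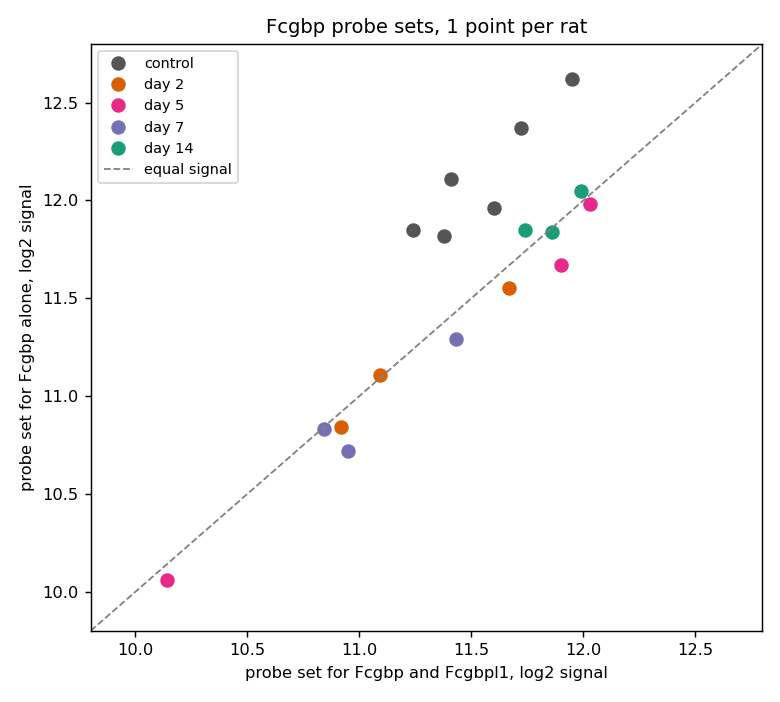
Log2 signal of the Fcgbp probe set (vertical) against the probe set shared by Fcgbp and Fcgbpl1 (horizontal), 1 point per rat, coloured by group; the dashed line marks equal signal as a guide. The 6 controls lie 0.37 to 0.70 above that line and the 12 TNBS rats within -0.24 to 0.11 of it.

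Zg16 (1368586_at) encodes a lectin-like mucus protein that binds bacterial cell walls. The controls read 12.06, 11.61, 11.57, 11.63, 11.04 and 11.99 (mean 11.65 ± 0.37). The rats of day 2 read 11.59, 10.88 and 10.83, those of day 5 read 10.53, 10.82 and 9.76, those of day 7 read 9.66, 11.60 and 11.29, and those of day 14 read 12.21, 11.71 and 11.37. The day 5 rats all lay below the lowest control, whereas on day 7 only replicate 1 did. Zg16 fell on day 5 by 1.28 ± 0.37, or 2.42-fold (adjusted p = 0.0171, and -0.97 with 0.0192 as deposited), but without day 5 replicate 3 the difference was -0.97 with an adjusted p of 0.108. The day 5 call of Zg16 also ended with the replicate number as a block. Its differences on day 2 (-0.55 ± 0.37, adjusted p = 0.317), day 7 (-0.80 ± 0.37, 0.115) and day 14 (0.11 ± 0.37, 0.881) did not pass.

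Agr2 (1393121_at) is the folding enzyme of the set. Its controls were 12.63, 12.75, 12.79, 12.94, 12.94 and 12.96 (mean 12.84 ± 0.14). Day 2 gave 12.45, 12.13 and 12.29, day 5 gave 12.52, 12.60 and 11.95, day 7 gave 11.63, 12.90 and 12.61, and day 14 gave 12.81, 12.76 and 12.93. Every rat of days 2 and 5 was below every control, a pattern that 9.61% and 14.4% of probe sets shared in those comparisons, but by small amounts. The differences of -0.55 ± 0.21 (adjusted p = 0.0798) and -0.48 ± 0.21 (0.101) did not pass. Spdef (1382937_at), the transcription factor, read 8.05, 7.54, 7.78, 7.74, 8.04 and 8.68 in controls and from 7.51 to 8.15 in the 9 rats of days 2, 5 and 14. Day 7 gave 6.39, 8.66 and 8.37, the widest spread of any day for this gene (SD 1.23). The differences of Spdef from control lay between -0.27 and 0.10, each with an SE of 0.36, and the test over all days gave an adjusted p of 0.924.

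The trefoil peptides followed separate courses. Tff3 (1387218_at) read 11.36, 11.06, 11.11, 11.48, 11.57 and 11.48 in controls (mean 11.34 ± 0.21), 11.53, 11.44 and 11.61 on day 2, and 11.57, 10.73 and 11.17 on day 5. It then read 10.62, 10.58 and 10.94 on day 7, all below every control, and 11.18, 11.16 and 11.35 on day 14. The day 7 difference of -0.62 ± 0.15, or 1.54-fold lower, was called after quantile normalization (adjusted p = 0.00693) and held in 18 of 18 fits without 1 array. As deposited it was -0.30 with an adjusted p of 0.118, so Tff3 does not meet the rule on both scales.

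Tff1 (1387647_at) read 4.33, 4.75, 5.05, 4.45, 4.60 and 4.73 in controls (mean 4.65 ± 0.25) and 5.28, 6.51 and 5.24 on day 5. All 3 day 5 rats were above all controls, as for 11.7% of probe sets. Tff1 rose on day 5 by 1.02 ± 0.25 (adjusted p = 0.00771, and 1.77 with 1.45e-05 as deposited). The deposited scale screened out no rise on day 5: limma called 3762 probe sets higher after quantile normalization and 3762 on both scales. The Tff1 control mean lay below the array median of 4.79. Without detection calls it is not known to exceed background, so no fold is given. Without day 5 replicate 2, the highest of the series, the difference was 0.61 with an adjusted p of 0.0634. The values on day 2 (4.36, 4.70 and 4.89) and day 7 (4.26, 4.81 and 4.63) lay within or just below the control range, and on day 14 a single rat exceeded it (4.60, 5.35 and 4.74).

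Tff2 (1368113_at) was uneven between rats. Controls read 3.81, 3.83, 4.04, 3.81, 3.93 and 3.48 (mean 3.82 ± 0.19), and day 2 read 3.96, 3.80 and 3.68. Day 5 gave 7.19, 4.31 and 3.76, day 7 gave 4.13, 7.66 and 3.96, and day 14 gave 5.89, 6.29 and 3.93. There were 4 arrays that stood far above the rest, 1 on day 5, 1 on day 7 and 2 on day 14, at 3.37, 3.85, 2.07 and 2.47 above the control mean on the log2 scale. The control mean lay below the array median of 4.79, and without detection calls it is not known to exceed background, so no fold is given. With 2 of 3 rats above all controls on each of these days and 1 rat near the control mean, the mean differences of 1.27, 1.43 and 1.55, each ± 0.77, did not pass (adjusted p = 0.251, 0.185 and 0.217). They passed as deposited (1.88, 1.98 and 2.24, adjusted p = 0.0351, 0.0278 and 0.014). Tff1 and Tff2 did not peak in the same rats: replicate 2 of day 5 was highest for Tff1 and replicate 1 for Tff2. The mean of 7 markers of gastric and pyloric epithelium (among them Gkn1, Gkn2, Pgc and Cldn18) stayed within -0.14 to 0.11 of its control mean in all 18 arrays, with 1 marker called lower on each of days 2, 7 and 14, none on day 5 and none called higher. Over all probe sets 9.87%, 14.5%, 15.9% and 6.09% were called lower on days 2, 5, 7 and 14, and 9.13%, 12.1%, 12.4% and 5.61% higher. The Gkn1 and Gkn2 probe sets lay at the 13.4 and 15.4 percentiles of signal over all probe sets. Cldn18, Pgc, Aqp5 and Muc5ac lay at 28.8, 29.3, 36.3 and 42.4, and Ctse at 89.8. A mean of mostly dim probe sets can stay flat whatever the tissue holds, so no conclusion on gastric or pyloric epithelium is drawn.

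For the membrane-bound mucins the direction depended on the value scale. Muc4 (1370926_at) read 5.97, 5.57, 6.01, 5.96, 6.14 and 6.25 in controls (mean 5.98 ± 0.23). Day 2 gave 6.41, 6.16 and 6.43, day 5 gave 6.40, 5.50 and 5.53, day 7 gave 5.24, 4.62 and 5.48, and day 14 gave 6.05, 5.53 and 6.15. The day 7 rats were all below the controls. Their difference of -0.87 ± 0.22, or 1.83-fold lower, was called after quantile normalization (adjusted p = 0.00734), but was -0.01 (0.982) as deposited and -0.63 (0.0582) without day 7 replicate 2. As deposited, Muc4 was instead called higher on days 2, 5 and 14 (1.18, 0.68 and 0.82). Muc1 (1398318_at) read 6.13, 5.51, 6.18, 5.65, 5.92 and 5.98 in controls. Day 2 gave 6.24, 6.73 and 6.28, day 5 gave 6.07, 4.92 and 6.95, day 7 gave 5.35, 5.07 and 5.60, and day 14 gave 6.48, 5.12 and 6.59. Every day 2 rat exceeded every control, as 9% of probe sets did, with a difference of 0.52 ± 0.36 that did not pass (adjusted p = 0.338). Days 5 and 14 each held 1 rat well below the other two, and the day 7 difference was -0.56 ± 0.36 (0.274). As deposited, Muc1 was called higher on days 2, 5 and 14 (1.34, 0.95 and 1.06) and was 0.30 above control on day 7 (adjusted p = 0.454).

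**Figure D3:**
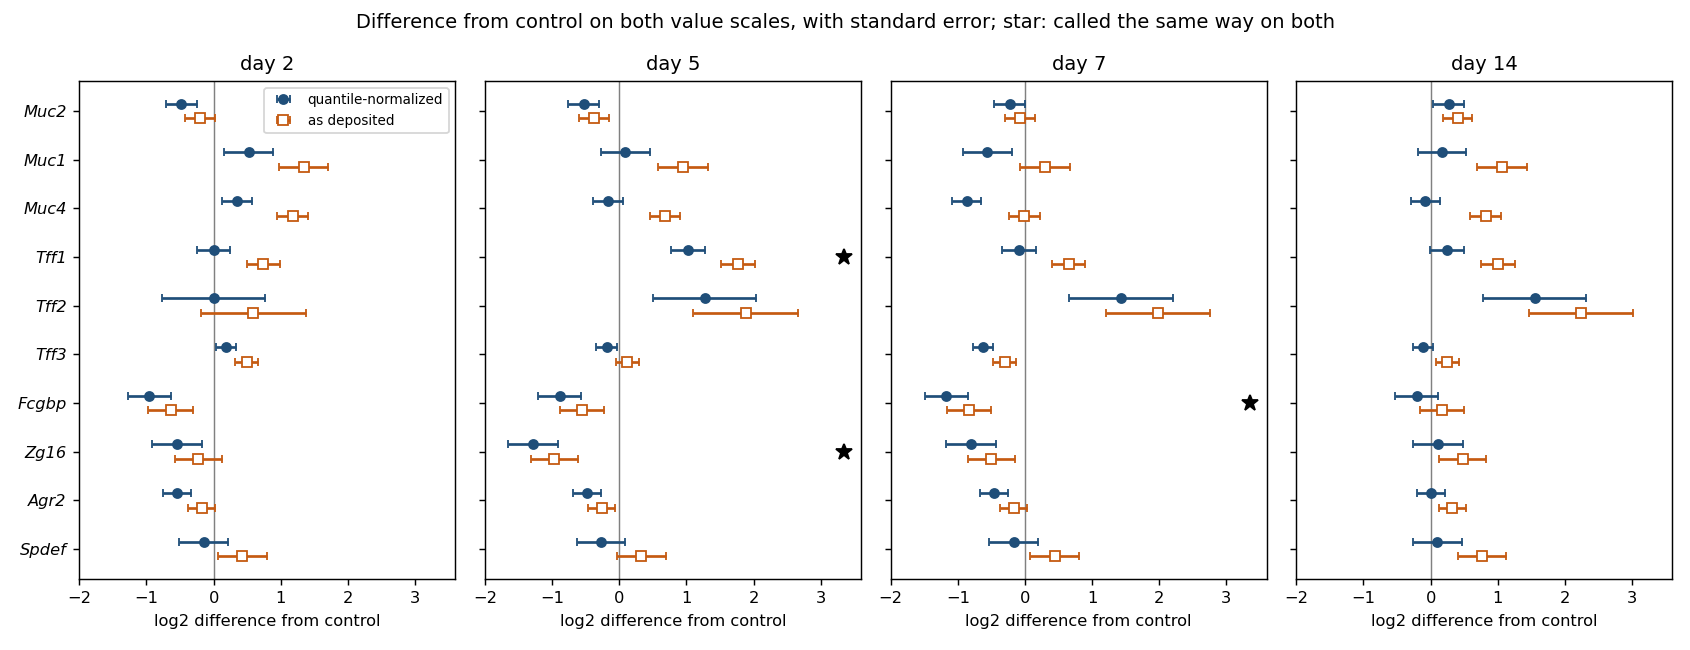
Log2 difference from control with its standard error for each gene and day, after quantile normalization (filled circles) and as deposited (open squares); a star marks genes called in the same direction on both. The stars are Tff1 and Zg16 on day 5 and Fcgbp on day 7, and the deposited values lie to the right of the quantile-normalized ones.

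A test of any TNBS day against control called 4 of the 10 genes: Muc4 (adjusted p = 0.0158), Tff3 (0.02), Fcgbp (0.0304) and Tff1 (0.0318), where 27.8% of all probe sets were called. Zg16 followed at 0.0524, Muc2 at 0.105 and Agr2 at 0.111. Among the 4 TNBS days, which had like distributions as deposited, the same test called 0 of 10 (5 at an unadjusted p under 0.05), where 2.45% of probe sets were called, and its smallest values were Muc4 at 0.0604, Tff3 at 0.083 and Tff1 at 0.117. Comparisons of one day with another called 0 of 10 genes by limma in each case: day 5 against day 2 (0.0129% of probe sets called, 1 gene at an unadjusted p under 0.05), day 7 against day 5 (0.0161%, 3 genes), day 14 against day 7 (4.14%, 4 genes) and day 14 against day 2 (0.029%, 2 genes).

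The step from day 7 to day 14 had the largest median of the day-to-day comparisons, 0.50 over the 10 genes beside 0.03 over all probe sets. It was not particular to these genes. The median was 0.62 for epithelial markers, 1.02 for enterocyte markers, 0.47 for other mucins and 0.44 for other goblet cell products. Neutrophil (-2.10), macrophage (-1.81), fibroblast (-1.06), smooth muscle (-0.14) and cytokine (-0.14) lists had negative medians. On day 14 all rats were above all day 7 rats for 4 of the 10 genes, Muc2, Muc4, Tff3 and Fcgbp, where 14.1% of probe sets had this pattern. The differences were 0.97 ± 0.36 for Fcgbp (adjusted p = 0.16), 0.80 ± 0.25 for Muc4 (0.093), 0.51 ± 0.18 for Tff3 (0.127) and 0.49 ± 0.27 for Muc2 (0.362), and none passed. Fcgbp and Muc2 on day 14 had small spreads, with SDs of 0.12 and 0.03.

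Rats of the same day often differed from each other, and which rats were low depended on the gene. Day 7 replicate 1 had the series' lowest Muc2 (12.14), Agr2 (11.63), Spdef (6.39) and Zg16 (9.66), while its day 7 companions were near control for these genes and low for Tff3, Muc4 and Fcgbp. Over the 12 TNBS rats, Muc2 correlated with Agr2 at r = 0.84, with Spdef at 0.81 and with Zg16 at 0.81, and Agr2 with Zg16 at 0.85. Without day 7 replicate 1 these were 0.79, 0.82, 0.75 and 0.77 over 11 rats. Tff3 correlated with Muc4 at 0.93 (0.93 without that rat) and with Muc1 at 0.71, but with Muc2 at 0.11 and with Agr2 at 0.03. These coefficients describe rats that share day, array processing and cell make-up, and carry no test.

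**Figure D4:**
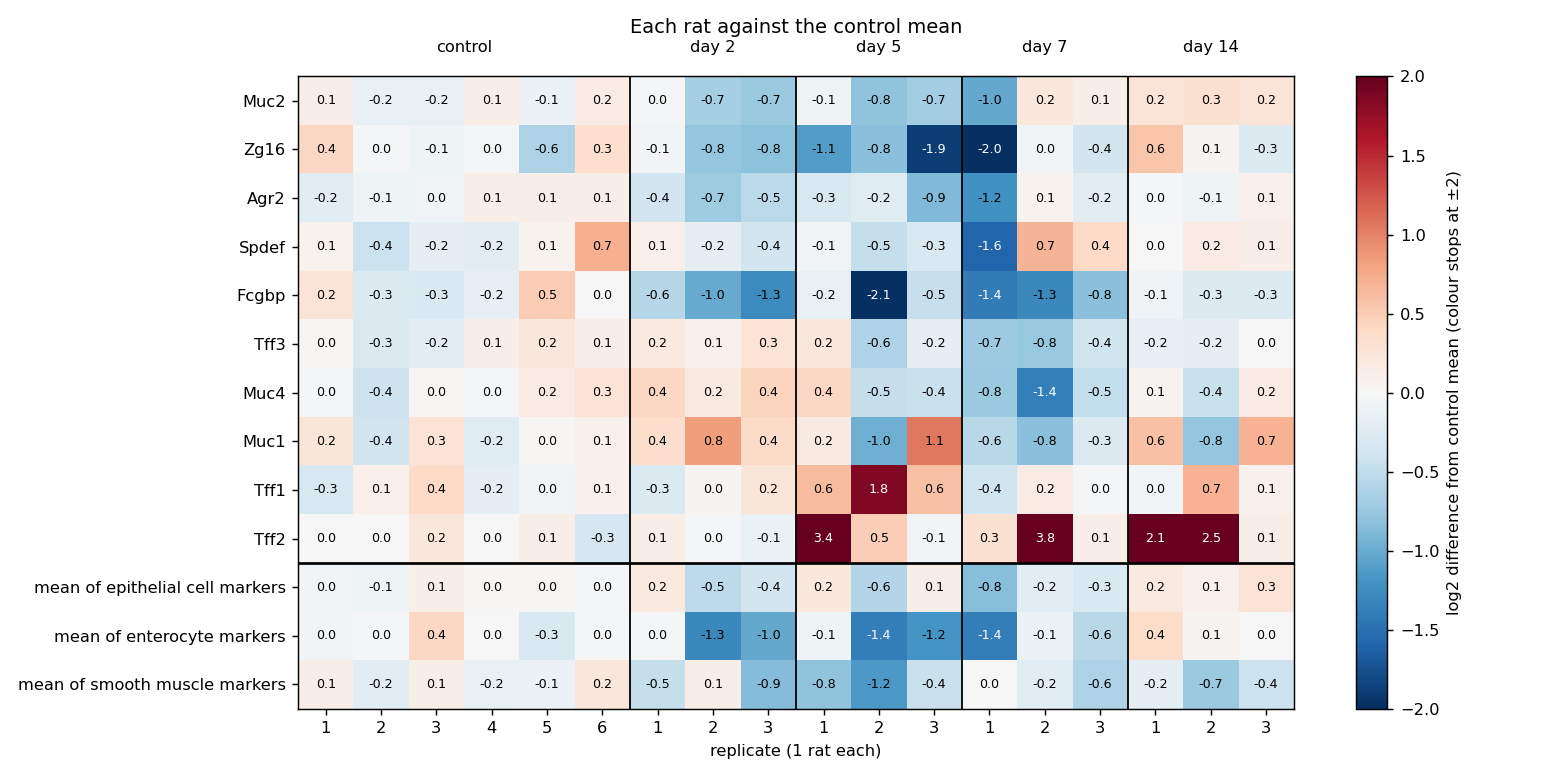
Log2 difference of each rat from the control mean for the 10 genes and, below the line, for the mean of 3 marker lists; columns are rats grouped by day, and colour stops at ±2. Day 7 replicate 1 is low for Muc2, Zg16, Agr2 and Spdef, and all 3 day 7 rats are low for Fcgbp, Tff3 and Muc4.

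Markers of the epithelium as a whole moved with several of these values. The mean of 16 epithelial markers (Epcam, keratins, claudins and others) lay within -0.09 to 0.12 of its mean in controls. Against that mean, the rats of day 2 were at 0.19, -0.53 and -0.37, those of day 5 at 0.21, -0.58 and 0.13, those of day 7 at -0.85, -0.22 and -0.31, and those of day 14 at 0.20, 0.08 and 0.28. The lowest rats by this mean, day 7 replicate 1 and day 5 replicate 2, also had the lowest Muc2 and the lowest Fcgbp of the series. On day 7, 5 of the 16 markers were called lower, against 15.9% of all probe sets, and 2 of them fell on both scales, against 1.07%. They were St14 (-0.99 ± 0.18, adjusted p = 0.000765), a surface protease, and Ocln (-0.96 ± 0.20, 0.00232), a tight junction protein. The count of 5 became 3 without day 7 replicate 1, 8 without day 7 replicate 2 or day 2 replicate 1, and 9 without day 5 replicate 2. Over the 12 TNBS rats the epithelial mean correlated with Fcgbp at 0.86, Muc2 at 0.70, Tff3 at 0.52, Zg16 at 0.45 and Tff1 at -0.05. Enterocyte markers ranged wider, down to -1.39 on days 5 and 7, against -0.31 to 0.41 in controls. Neutrophil markers were 1.34 to 3.16 above control on day 2, 2.91 to 3.83 on day 5, 3.21 to 4.15 on day 7 and 0.57 to 1.14 on day 14, against -0.11 to 0.08 in controls. The part of tissue make-up in the changes of the goblet cell genes was not tested.

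Relative to the epithelial mean of the same rat, the members spread widely within a day, and these values carry no test. Fcgbp was lower than in controls by a mean of -0.72 on day 2, -0.81 on day 5, -0.71 on day 7 and -0.39 on day 14 (SD 0.15 to 0.60, n = 3 each, against 0.34 in controls). These values rest on the probe set for Fcgbp alone. The probe set shared with Fcgbpl1 was not set against the epithelial mean. Without that subtraction it differed from control by -0.32, -0.19, -0.48 and 0.32 on days 2, 5, 7 and 14, none of them called. Zg16 came to -1.20 ± 0.89 (SD) on day 5, with 1 rat inside the control range, and to -0.34 ± 0.70 on day 7, within the spread between rats. The day 7 values of Tff3 and Muc4 shrank to -0.16 ± 0.34 and -0.41 ± 0.65, which lie within the spread between rats. For Muc2 the relative value was -0.45 ± 0.33 on day 5, then 0.23 ± 0.34 on day 7. Tff1 stood at 1.10 ± 1.15 on day 5.

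Genes of the wider goblet cell program gave calls in both directions. Of 13 other goblet cell products, 8 were measured, and after quantile normalization the counts called higher and lower were 3 and 2 (day 2), 2 and 1 (day 5), 1 and 2 (day 7), and 1 and 0 (day 14). The shares of all probe sets were 9.13% and 9.87%, 12.1% and 14.5%, 12.4% and 15.9%, and 5.61% and 6.09%. Bcas1 rose on every day, by 1.12 ± 0.19 on day 2 (adjusted p = 0.00106), 1.60 on day 5 (4.21e-05), 0.72 on day 7 (0.011, and 0.0707 without day 7 replicate 3) and 1.27 on day 14 (0.00061). Best2, a bicarbonate channel of colonic goblet cells, rose on day 2 (1.38 ± 0.31, adjusted p = 0.00588), and its differences of 0.24, -0.33 and -0.15 on the later days did not pass. Clca4, of the chloride channel accessory family, rose by 1.21 on day 2 and 1.00 on day 5. These calls ended without day 2 replicate 3 (adjusted p = 0.0719) and without day 5 replicate 1 or 2 (0.0939 and 0.051). Clca4 is not limited to goblet cells, and its cell of origin here was not tested. Scin, an actin-severing protein, fell on days 2, 5 and 7 (-2.08, -1.88 and -1.79), and each of these calls ended without 1 of the lower rats (adjusted p = 0.078 and 0.1 without day 2 replicate 2 or 3, 0.158 without day 5 replicate 2, 0.0949 and 0.0712 without day 7 replicate 1 or 2). The abundant goblet cell protein Clca1 did not pass on any day (-0.72, -0.54, -0.75 and 0.11, each ± 0.36).

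Of 13 other mucins 4 were measured, and the one call was Muc3, a membrane-bound mucin of enterocytes. It fell on day 7 by 0.95 ± 0.22 (adjusted p = 0.00413, and 0.0239 as deposited), where 1.07% of all probe sets fell. Muc5ac and Muc5b, gel-forming mucins of other organs, did not pass on any day, with differences from -0.31 to -0.04. Of 17 measured regulators of the secretory lineage, 1 was called higher and 5 lower on day 7, and 4 fell on both scales, while on days 2, 5 and 14 none fell. Over all probe sets 12.4% were called higher and 15.9% lower on day 7. On both scales 0.522%, 1.09%, 1.07% and 0.135% of probe sets fell on days 2, 5, 7 and 14. The higher call among the regulators was lost in 14 of 18 fits without 1 array. The genes that fell on day 7 include Klf4, a factor of goblet cell differentiation (-1.13), Hes1, the Notch target that opposes secretory fate (-1.09), and Elf3, an epithelial ETS factor (-0.94). Foxa2, a forkhead factor linked to mucin genes, was lower on day 7 by -1.29 ± 0.35 (adjusted p = 0.013) but not as deposited (0.165).

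The next list holds enzymes that build and modify mucin sugar chains. Of 23 measured, 1 was called higher and 4 lower (day 2), 2 and 7 (day 5), 3 and 8 (day 7), and 0 and 3 (day 14), after quantile normalization. Over all probe sets 9.13%, 12.1%, 12.4% and 5.61% were called higher and 9.87%, 14.5%, 15.9% and 6.09% lower on these days. On both scales 1 enzyme fell on each of days 2, 5 and 7, against 0.522%, 1.09% and 1.07% of probe sets. The count of 7 on day 5 became 3 without replicate 2 and 2 without replicate 3, and the count of 8 on day 7 became 4 without day 7 replicate 1 or control replicate 4 and 5 without control replicate 3, 5 or 6 or day 5 replicate 3. The enzyme that fell was Fut1, a fucosyltransferase, at -1.58, -1.73 and -2.04 on days 2, 5 and 7. Galnt3, which starts O-glycan chains, was lower by -0.92, -0.95, -0.88 and -0.73 on the 4 days after quantile normalization, but was not called as deposited (adjusted p = 0.548, 0.402, 0.748 and 0.373). St3gal4, a sialyltransferase, rose by 1.19, 1.60 and 1.20 on days 2, 5 and 7 (on day 2 the call ended without replicate 2, adjusted p = 0.0621).

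Of 11 measured genes of protein folding in the endoplasmic reticulum, 3 rose on each day, and they were Pdia4, Hsp90b1 and Creld2. Over all probe sets 9.13%, 12.1%, 12.4% and 5.61% rose on days 2, 5, 7 and 14. Pdia4, a disulfide isomerase, rose by 1.39, 1.37, 0.79 and 1.09 on days 2, 5, 7 and 14. Hsp90b1, a chaperone, rose by 1.01, 0.75, 0.51 and 0.60, and Creld2 by 1.14, 0.89, 0.59 and 0.70. The count fell to 1 without day 5 replicate 2 on day 5, to 0 without day 7 replicate 1 or 2 on day 7, and to 1 on day 7 without control replicate 1, 3, 4 or 6 or day 14 replicate 2. On day 14 it fell to 1 without control replicate 1, 3, 4 or 6, day 5 replicate 3, or day 14 replicate 2 or 3. Dnajb9, another gene of this list, was called lower on days 5 and 7 after quantile normalization, but no gene of the list fell on both scales. The call held in 18 of 18 fits without 1 array on day 5 and in 17 on day 7. Over all probe sets 14.5% and 15.9% were called lower on these days. The genes of this list act in all secretory cells. The mean of 7 B and plasma cell markers varied widely between rats (from -0.63 to 2.06 in controls and from -1.13 to 2.73 after TNBS). The cell of origin of the folding genes was not tested.

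**Figure D5:**
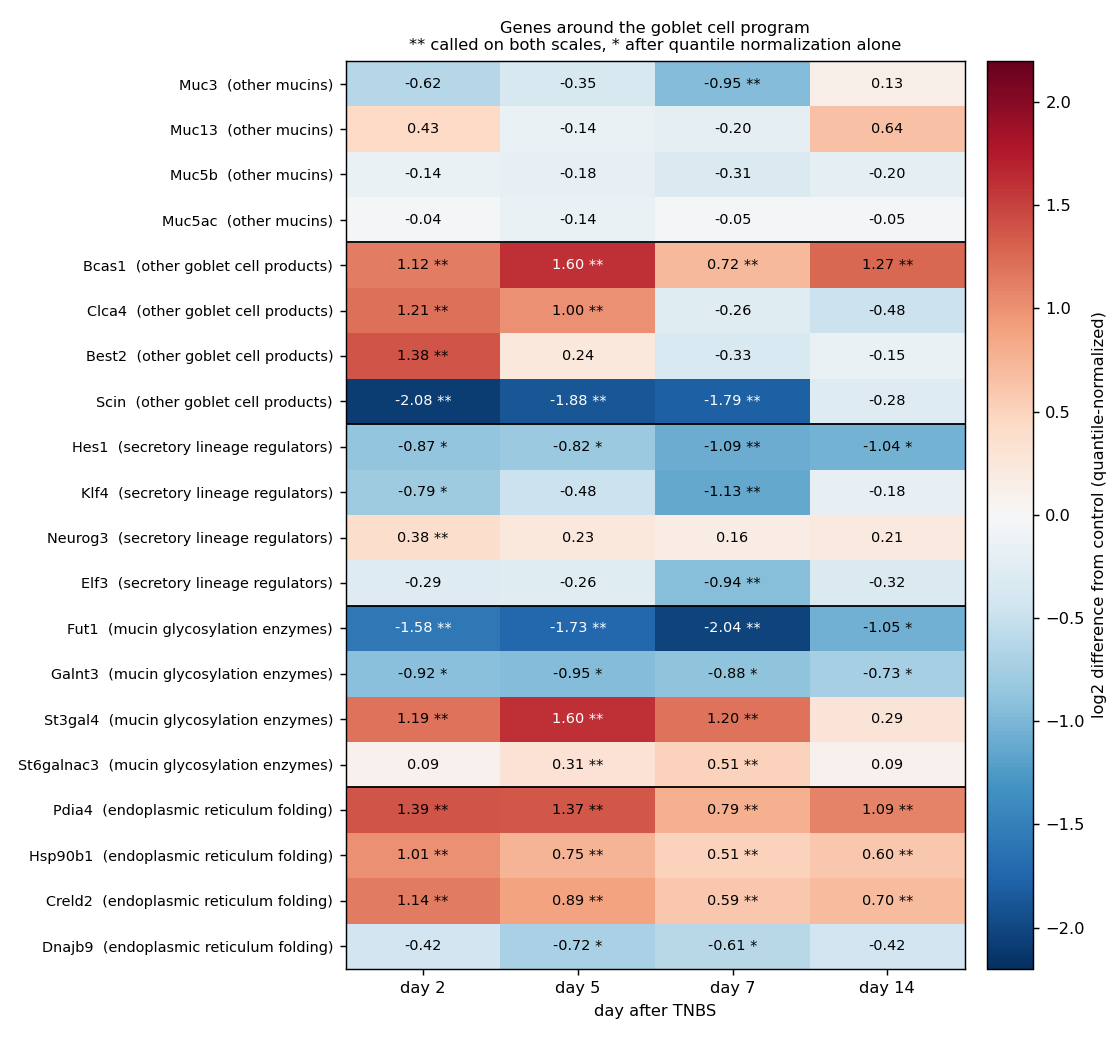
Log2 difference from control by day for the up to 4 genes of each related list with the smallest p over all days; colour and number give the difference, 1 asterisk a call after quantile normalization alone and 2 a call on both scales. Pdia4, Hsp90b1, Creld2 and Bcas1 carry 2 asterisks on all 4 days, and Fut1 and St3gal4 on days 2, 5 and 7.

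Among cytokines and receptors that act on goblet cells, 10 of 15 were measured. Of these, 2 rose on day 2, 3 on day 5, 6 on day 7 (the count was 1 without day 7 replicate 1) and 0 on day 14. The shares of all probe sets that rose were 9.13%, 12.1%, 12.4% and 5.61%. Il1b rose by 3.52, 5.89 and 6.62 on days 2, 5 and 7, and was 1.13 ± 0.43 above control on day 14 (adjusted p = 0.105). Il33, an alarmin of the type 2 axis, rose by 1.21 on day 5 and 1.17 on day 7. Smaller rises were those of Tnf on days 2, 5 and 7 and of Il13ra2 on day 7. Over the 18 fits without 1 array, Tnf was 0.51 to 0.59 above control on day 2. Il13ra2 was 0.27 to 0.41 above it on day 7, called in 6 of these fits. The probe sets of Tnf and Il13ra2 were dim, at the 38.8 and 26.0 percentiles of signal.

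For the 4 genes called over all days, the genes with the most similar course across the 12 TNBS rats, of 13973 candidates, were Cyp2j4 (r = 0.956), Adck2 (0.952) and Ncald (0.951) for Fcgbp, and Ppp5c (0.926), Rdh10 (0.907) and Zfp276 (0.904) for Tff3. For Muc4 they were Uqcc4 (0.937), Snx7 (0.924) and Lratd1 (0.917), and for Tff1 they were Tmem97 (0.909), Taf12 (0.898) and C5h8orf34 (0.892). None of these is a member of the goblet cell set, since members were left out of the search. With so many candidates and 12 arrays, high coefficients can arise by chance, and they carry no test. Over all 18 arrays the same pairs ranged from 0.223 (Ppp5c with Tff3) to 0.895 (Cyp2j4 with Fcgbp).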

How the data were processed

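The authors deposited 1 normalized expression value per probe set and array, made with the Bioconductor package affyPLM per the labels' design text. The log base is not given in the sources used here, and the deposited values were read as log2 from their range. Of 31099 probe sets, 57 array controls were left out, and 20826 have 1 symbol in the platform annotation, 436 several and 9780 none. Arrays were quantile-normalized and fitted with limma 3.58.1 in R 4.3.3, with 1 coefficient per group over all 18 arrays, Benjamini-Hochberg adjustment and a threshold of 0.05. No filter on dim probe sets was used. A gene is represented by its brightest single-symbol probe set. Genes given with results from the related lists were taken from the up to 4 of each with the smallest p over all days. Not all of these are named in the text. Clca1 and Foxa2 were added after their values were seen. The members and lists were chosen with earlier results of these data known. Alternatives covered the deposited scale, median centring, filters, the prior, array weights, the threshold, the block and leaving out each array. The number of arrays limits precision. On simulated data with the array numbers and spread of day 5 against control (31042 probe sets, 200 changed), 88.0% of changes of 1 and 98.0% of changes of 2 on the log2 scale were recovered. The simulated noise was normal and independent between arrays, with no offset between control and TNBS arrays. Calls on 1 scale were scored, so these shares do not give the recovery of falls under the rule on both scales. In the data 26.6% of probe sets were called on day 5.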

Additional observations from a re-analysis of the deposited data

Results flagged for a closer look

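Among genes of the related lists, 4 differed between day 14 and day 7 by limma's test of that difference over all probe sets, and none of the 10 goblet cell genes did. In that comparison 4.14% of all probe sets were called. Muc3 was higher on day 14 by 1.07 (adjusted p = 0.0238) and St14 by 0.80 (0.0369). St6galnac3, a sialyltransferase, was -0.41 on day 14 against day 7 (0.024), and Il1b was -5.49 (5.64e-05). In controls, replicate 1 stood apart for Neurog3, an endocrine lineage factor, at 3.65 against 3.76 to 3.80 in the other 5, a spread that is small for this dim probe set. Such a gap arises by chance in about 1 in 20 groups.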

How the results depend on the processing

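The counts of goblet cell genes called depended on the value scale. Against the 1, 3, 3 and 0 genes called on days 2, 5, 7 and 14, the deposited scale called 4, 5, 3 and 4 (4, 4, 2 and 4 of them higher), and centring each array on its median called 4, 6, 6 and 1 (0, 1, 0 and 0 of them higher). Calls on both scales numbered 0 on day 2 and 1 on day 7. Fitting only the groups compared called 2 on day 2, 1 on day 14 and 1 for day 14 against day 7. An adjusted p under 0.01 left 0 on day 2, 1 on day 5 and 0 of the 4 genes called over all days, where median centring called 7. Among the TNBS days, 1 gene was called in place of 0 without the lowest 50% or 25% of probe sets, with 1 probe set per gene, and with the mean of a gene's probe sets. With the replicate number as a block, 0, 1 and 1 genes were called on days 2, 5 and 7. The block ended the calls of Fcgbp on day 7 (-1.07, adjusted p = 0.054) and Zg16 on day 5 (-1.37, 0.0607), and kept that of Tff1 on day 5 (0.97, 0.019). The labels give the numbers no shared origin. Same-number pairs across groups correlated at -0.33 to 0.47 (median 0.06, 13 of 30 over 0.1) and other pairs at -0.55 to 0.33 (median -0.04, 12 of 60 over 0.1), and 10 of 15 arrays matched their own number best. This is a hint of pairing from the data, and pairing was not tested. Control replicates 4, 5 and 6 share their number with no TNBS array, so the block fit sets the TNBS days against control replicates 1, 2 and 3 alone. Whether pairing or the smaller number of controls ended the calls of Fcgbp and Zg16 was not tested. The block was kept as an alternative, so these calls depend on that choice. Leaving out each array gave 0 to 2 genes on day 2, 1 to 4 on day 5, 2 to 4 on day 7, 0 on day 14, 3 to 6 over all days, 0 to 3 among TNBS days (2 and 3 without day 5 replicate 1 and 2), 0 to 1 for day 14 against day 7 and 0 for the other day comparisons. Among differences called on at least 1 scale, the deposited scale turned a negative one positive for Muc4 (0.68 on day 5, 0.82 on day 14), Tff1 (0.74 on day 2, 0.65 on day 7), Muc5b (0.68, 0.65, 0.52 and 0.64 on the 4 days), Muc5ac (0.67, 0.55, 0.64 and 0.63), Best2 (0.73 on day 14), Galnt3 (0.14 on day 14), Dnajb9 (0.10 on day 7, 0.33 on day 14) and Pkp3 (0.02 on day 2, 0.08 on day 14). Sign changes of differences called on neither scale are not listed. Among them were those of Spdef on days 2, 5 and 7 (0.43, 0.33 and 0.44 as deposited). By construction the deposited scale keeps the 0.76 offset between array medians. Of 2312 combinations of member, comparison and setting, 4 changed sign with a call in either fit, 35 gained a call and 42 lost one. Sign changes without a call are not counted. Fits on the other lists, and correlations without day 7 replicate 1, were added after seeing the data. The filter at 50% left out Tff2, whose signal lay at the 45.1 percentile.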
